A study of Arabidopsis thaliana and Zea mays with 12 samples.

Results

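Photosystem I (PSI) is the chlorophyll-protein complex of the thylakoid membrane that takes electrons from plastocyanin in the lumen and, with light, passes them to ferredoxin in the stroma. Its reaction centre proteins PsaA and PsaB and the iron-sulfur protein PsaC are made in the chloroplast, while most of the small subunits around them are encoded in the nucleus, translated in the cytosol and imported. The 10 genes described here encode 7 of these nuclear core subunits of Arabidopsis thaliana: PsaD (PSAD1 and PSAD2), PsaE (PSAE1 and PSAE2), PsaF, PsaG, PsaH (PSAH1 and PSAH2), PsaK and PsaL. They were chosen by gene identifier, with no measured value in the rule, but with earlier results of these data known. All 10 were found among the 27411 genes of the expression table.

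The study examined 4acC, an acetylated form of cytosine, in plant genomic DNA, and its 12 samples comprise immunoprecipitation and input libraries and an RNA-seq experiment. Only the 2 RNA-seq libraries, labelled replicate 1 and replicate 2, have values used here. Both came from leaves of 3-week-old untreated wild-type Col-0 plants, the reference accession of Arabidopsis, so no mutant allele, transgene or treatment was present. The levels were FPKM values, the reads of a gene divided by its exon length and by the reads of the library. With 1 condition, no comparison between conditions could be made and the results compare paralogs, subunits and replicates. The study's methods call the replicates biological, and the labels give only their numbers. A bulk leaf sample cannot separate fewer cells of a type from less RNA per cell.

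All 10 members lay among the 100 most abundant transcripts by mean FPKM, although PSAD2 ranked 103 in replicate 1 and 70 in replicate 2. By mean FPKM over both libraries they ranked from 7 (PSAL) to 83 (PSAD2) of 27411, with a median of 3887. All 10 exceeded a mean of 1000 FPKM, which 0.485% of all genes did. Their summed share of all FPKM was 4.96% in replicate 1 and 5.71% in replicate 2. The label of the tissue was set beside marker genes, as the study's RNA methods name plants and no tissue. RBCS1A, a Rubisco small subunit gene, was the highest of 3 mesophyll markers at 22156 and 27040 FPKM. The lowest, RCA, had a mean of 383 ± 14.2 (SD, n = 2). All 3 were above 1, as 47.7% of all genes were. The 3 seed and 3 flower markers were all below 1 in mean FPKM, whereas 1 of 3 root markers (PYK10, 7.50 ± 0.68, SD, n = 2) and 1 of 3 pollen markers (AT1G10770, 2.96 ± 0.22, SD, n = 2) were above it. Whether such cells contributed to the members' levels was not tested.

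**Figure D1:**
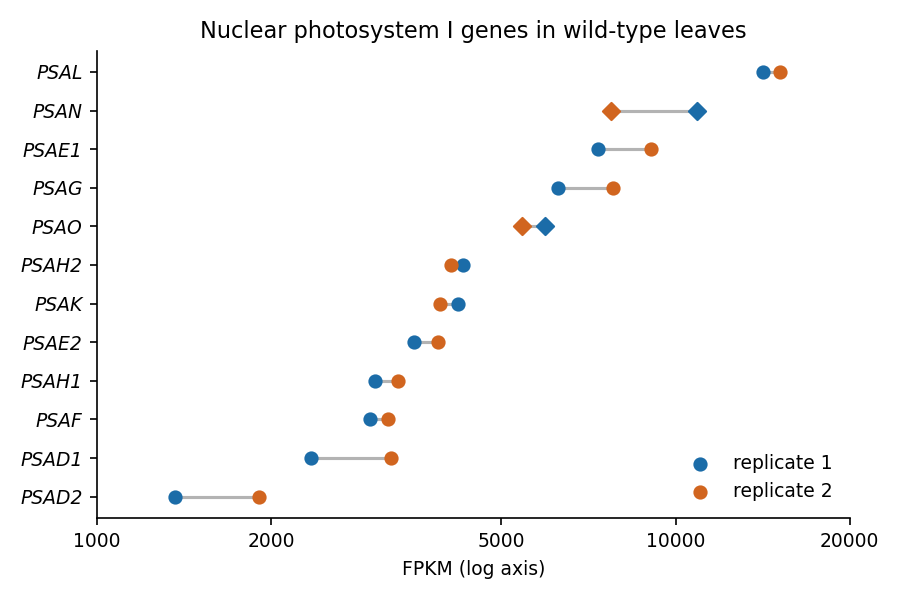
FPKM of the 10 nuclear PSI core genes (circles) and of PSAN and PSAO (diamonds) in replicate 1 (blue) and replicate 2 (orange), on a log axis. Grey lines join the libraries of a gene. PSAL stands above all others at 14154 and 15156, PSAD2 lies lowest at 1363 and 1904, and 8 of the 10 circles are higher in replicate 2 (10 of 10 when scaled to the sums without the 10 highest genes).

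The sequences of the 3 paralog pairs are shown first because reads that fit both copies would blur their levels. Positions are those of the TAIR10.1 assembly and RefSeq annotation, since the expression table gives identifiers alone. In the lines that follow, capitals mark bases at which the paralogs differ. For PsaD, both genes are single exons on the minus strand, and the stretch chr4:1229328-1229447 of PSAD1 and chr1:753609-753728 of PSAD2, a coding stretch, holds the longest run that the mRNAs share (35 bases), with 8 of 120 bases different.
PSAD1: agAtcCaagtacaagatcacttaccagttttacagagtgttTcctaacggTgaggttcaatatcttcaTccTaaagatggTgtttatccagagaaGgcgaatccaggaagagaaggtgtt
PSAD2: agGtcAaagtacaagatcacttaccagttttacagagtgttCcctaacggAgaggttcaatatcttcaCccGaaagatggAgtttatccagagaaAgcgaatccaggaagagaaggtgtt
For PsaE, exon 2 is a 66-base coding exon in both genes, at chr4:14203160-14203225 on the minus strand for PSAE1 and chr2:8737397-8737462 on the plus strand for PSAE2, and differs at 5 bases.
PSAE1: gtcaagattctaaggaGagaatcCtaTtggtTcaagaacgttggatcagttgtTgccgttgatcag
PSAE2: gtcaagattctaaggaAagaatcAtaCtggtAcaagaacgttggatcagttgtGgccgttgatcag
For PsaH, exon 2 is a 127-base coding exon in both genes, at chr3:5468940-5469066 on the minus strand for PSAH1 and chr1:19455126-19455252 on the plus strand for PSAH2, and differs at 14 bases, with a shared run of 30 bases that is the longest of that pair.
PSAH1: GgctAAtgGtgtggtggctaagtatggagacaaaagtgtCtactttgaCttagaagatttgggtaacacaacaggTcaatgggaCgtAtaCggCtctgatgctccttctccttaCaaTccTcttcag
PSAH2: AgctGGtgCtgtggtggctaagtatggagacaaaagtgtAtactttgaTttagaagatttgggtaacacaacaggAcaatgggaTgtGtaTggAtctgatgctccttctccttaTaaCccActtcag

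The pairs diverged most at their start, in the part that carries the chloroplast transit peptide, which directs import and is removed afterwards. The first 60 coding bases are shown for each pair. They differ at 10 positions between PSAD1 (chr4:1229814-1229873, minus strand) and PSAD2 (chr1:754083-754142, minus strand), at 16 between PSAE1 (chr4:14203829-14203888, minus strand) and PSAE2 (chr2:8736780-8736839, plus strand), and at 11 between PSAH1 (chr3:5469356-5469415, minus strand) and PSAH2 (chr1:19454902-19454961, plus strand).
PSAD1: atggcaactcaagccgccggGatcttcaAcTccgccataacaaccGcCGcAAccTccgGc
PSAD2: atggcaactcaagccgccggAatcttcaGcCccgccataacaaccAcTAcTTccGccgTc
PSAE1: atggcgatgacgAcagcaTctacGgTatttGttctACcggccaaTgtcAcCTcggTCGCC
PSAE2: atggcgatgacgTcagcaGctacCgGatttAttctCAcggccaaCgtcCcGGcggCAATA
PSAH1: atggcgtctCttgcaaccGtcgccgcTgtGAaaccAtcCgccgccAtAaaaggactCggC
PSAH2: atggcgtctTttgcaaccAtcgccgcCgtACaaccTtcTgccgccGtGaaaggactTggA
Translation of the annotated coding sequences gave proteins of 208 and 204 residues for PSAD1 and PSAD2, 143 and 145 for PSAE1 and PSAE2, and 145 each for PSAH1 and PSAH2. Identity in a global alignment was 82.0% over the first 50 residues and 96.8% over the rest for the PsaD pair, 64.8% and 82.8% for the PsaE pair, and 80.0% and 97.9% for the PsaH pair. PsaG and PsaK, which are related membrane proteins, shared 25.5% of aligned residues. No stretch of 150 bases, the read length, nor of 50 bases was common to the mRNAs of any pair, and the longest shared run of the PsaE pair was 22 bases. A full-length read therefore held bases that tell the copies apart, and the number by which each library was divided equals the reads the study lists as placed at 1 position. Whether reads matching several positions entered the counts of a gene is not said in the sources.

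PsaD and PsaE form the stromal ridge of PSI, where ferredoxin docks. PSAD1 (AT4G02770, chromosome 4, 1229031 to 1230164) was at 2345 FPKM in replicate 1 and 3218 in replicate 2 (mean 2782 ± 617, SD, n = 2). PSAD2 (AT1G03130, chromosome 1, 753307 to 754262) was at 1363 and 1904 (1633 ± 383, SD, n = 2). Neither value of PSAD2 reached those of PSAD1, and both genes were higher in replicate 2. PSAD1 was 1.72-fold above PSAD2 in replicate 1 and 1.69-fold in replicate 2, so that PSAD1 supplied 63.2% and 62.8% of PsaD transcripts. On the scale of log2(FPKM + 1) the difference was 0.77 ± 0.018 (SD, n = 2 libraries). The pair thus kept its proportion while its total moved from 3708 to 5122.

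On the lengths the authors used, PsaE had the most unequal pair. PSAE1 (AT4G28750, chromosome 4, 14202758 to 14204061) was at 7348 and 9051 FPKM (8200 ± 1204, SD, n = 2). PSAE2 (AT2G20260, chromosome 2, 8736734 to 8737767) was at 3530 and 3890 (3710 ± 255, SD, n = 2). The ranges of the genes did not overlap, and PSAE1 was 2.08-fold above PSAE2 in replicate 1 and 2.33-fold in replicate 2. The log2 difference was 1.14 ± 0.11 (SD, n = 2 libraries), and PSAE1 made up 67.6% and 69.9% of the PsaE total.

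PsaH lies beside PsaL at the face of PSI where light-harvesting complex II binds during state transitions, the redistribution of antenna between the photosystems. PSAH2 (AT1G52230, chromosome 1, 19454798 to 19455668) was at 4292 and 4090 FPKM (4191 ± 143, SD, n = 2). PSAH1 (AT3G16140, chromosome 3, 5467987 to 5469594) was at 3022 and 3307 (3165 ± 201, SD, n = 2). Here the second gene of the pair was the higher one, by 1.42-fold in replicate 1 and 1.24-fold in replicate 2. The log2 difference of PSAH1 to PSAH2 was -0.41 ± 0.14 (SD, n = 2 libraries), the smallest of the 3 pairs on the lengths the authors used. On the deposited scale PSAH1 was higher and PSAH2 lower in replicate 2 (PSAH2 turned higher when the libraries were scaled to their sums without the 10 highest genes), and their sum was 7314 and 7397.

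For each of the 3 pairs an exact two-sided sign-flip permutation test over the 2 libraries gave p = 0.5, which is the smallest p that this test can give with 2 libraries, and 0.5 after Benjamini-Hochberg adjustment over the 3 pairs. Each difference had the same direction in 2 of 2 libraries. The ratios also depend on the exon length by which the counts were divided. The values give this length only up to a whole multiple. The 1 multiple from the TAIR10.1 coding length to the TAIR10.1 exon length was taken, so no longer length could be found. PSAD1 was divided by 835 bases, PSAD2 by 892, PSAE1 by 698, PSAE2 by 607, PSAH1 by 665 and PSAH2 by 664. TAIR10.1 gives PSAH1 an exon length of 1300 bases, of which 683 are 3′ UTR, and with TAIR10.1 exon lengths PSAH1 fell to a mean of 1619 FPKM against 3964 for PSAH2, a log2 difference of -1.29. PSAD1 came to 2048 against 1524 for PSAD2 on these lengths, a log2 difference of 0.43, and the log2 difference of PSAE1 to PSAE2 was 0.94. Only the divisor was changed here. The counts stayed those made on the authors' exon models, such as 665 bases for PSAH1. Reads on other bases of the TAIR10.1 models may be missing from them. With the TAIR10.1 lengths put in, PsaH was the most unequal pair, but these values are not levels measured on the TAIR10.1 models.

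**Figure D2:**
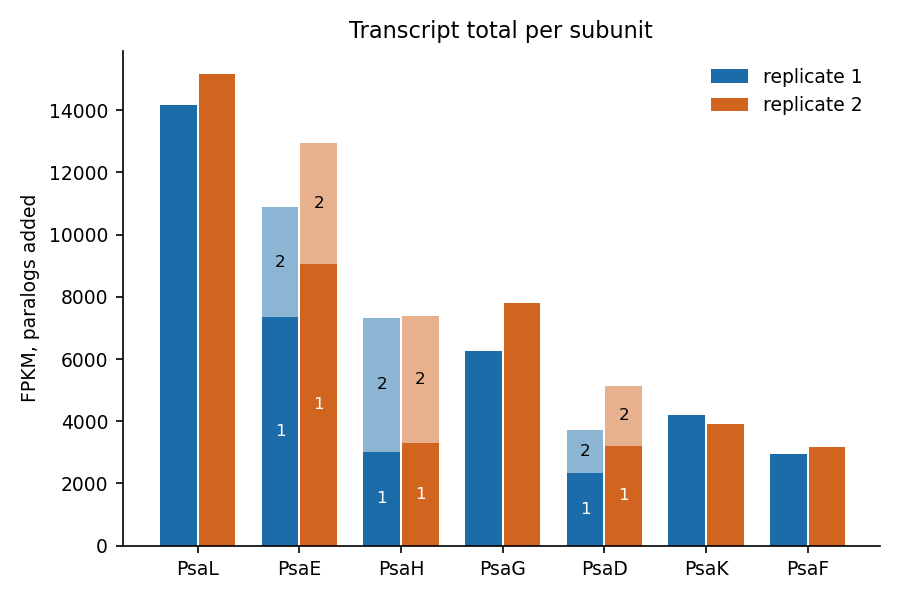
FPKM per subunit in replicate 1 (blue) and replicate 2 (orange), with the paralogs of PsaE, PsaH and PsaD added; the digit in a bar names the paralog and the paler part is gene 2. PsaL leads in both libraries and PsaF is lowest, 4.78- and 4.77-fold apart, and gene 1 is the larger part for PsaE and PsaD but not for PsaH.

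PsaF reaches into the lumen and helps plastocyanin dock. Its only gene in the set, PSAF (AT1G31330, chromosome 1, 11214676 to 11216141, minus strand), was at 2962 and 3179 FPKM (3070 ± 154, SD, n = 2). It was the lowest of the 7 subunit totals in both libraries, although PSAD1 alone was below it in replicate 1 and above it in replicate 2.

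PsaG and PsaK sit at opposite ends of the antenna belt, PsaG next to LHCA1 and PsaK next to LHCA3. PSAG (AT1G55670, chromosome 1, 20802670 to 20803449, minus strand) was at 6270 and 7787 FPKM (7029 ± 1073, SD, n = 2). PSAK (AT1G30380, chromosome 1, 10722183 to 10723247, plus strand) was at 4214 and 3915 (4065 ± 212, SD, n = 2). PSAG was above PSAK in both libraries without overlap. On the deposited scale PSAG was higher and PSAK lower in replicate 2, and PSAK turned higher with the scaling just named.

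PsaL, the subunit that joins PSI monomers into trimers in cyanobacteria and lies beside PsaH in plants, had the most abundant transcript of the set. PSAL (AT4G12800, chromosome 4, 7521257 to 7522761, plus strand) was at 14154 and 15156 FPKM (14655 ± 709, SD, n = 2). In the ranking of all genes by mean it stood between RBCS3B, another Rubisco small subunit gene (14809 and 16591), and PSBW, a small photosystem II subunit gene (12000 and 11016). At the other end, PSAD2 stood between AT3G08520 (2058 and 1279) and PSRP6, a plastid ribosomal protein gene (1791 and 1320). The values of PSAD2 lay within the range of AT3G08520 and overlapped that of PSRP6.

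The order of the members by mean was PSAL, PSAE1, PSAG, PSAH2, PSAK, PSAE2, PSAH1, PSAF, PSAD1 and PSAD2. Of the 9 neighbouring pairs in it, 5 did not overlap between libraries: PSAL with PSAE1, PSAG with PSAH2, PSAK with PSAE2, PSAE2 with PSAH1, and PSAD1 with PSAD2. The other 4 overlapped, and PSAF and PSAD1 changed places between the libraries. The highest member was 10.4-fold above the lowest in replicate 1 and 7.96-fold in replicate 2. When paralogs were added, this spread narrowed to 4.78- and 4.77-fold, from PsaL to PsaF. Between them came PsaE (10878 and 12941), PsaH (7314 and 7397), PsaG (6270 and 7787), PsaD (3708 and 5122) and PsaK (4214 and 3915). With the same counts divided by TAIR10.1 exon lengths PSAH1 (1619) came below PSAD1 (2048). With them divided by coding lengths PSAK (7808) came above PSAH2 (6353), and with TAIR10.1 exon lengths also (3991 against 3964). On the authors' lengths PsaH with PsaG and PsaD with PsaK changed order between the libraries and were not separated. By mean, PsaG came above PsaH with coding lengths (11351 against 11158) and with TAIR10.1 exon lengths (7029 against 5583). PsaK likewise came above PsaD (7808 against 6073, and 3991 against 3572). The PSI complex holds 1 copy of each subunit, whereas these transcript totals were unequal.

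Each level rested on many reads. The deposited values of a gene are whole counts scaled by its length and the library, and the counts recovered from them ran from 113167 (PSAD2, replicate 1) to 1574482 (PSAL, replicate 2). The widest 95% counting interval (exact Poisson) spanned 1.17% of the FPKM value from its lower to its upper bound. The replicates of each of the 10 members differed by more than that. These intervals cover counting error only, since the reads carry no molecular identifiers.

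Replicate 2 was at or above replicate 1 for most members. On the deposited scale 8 of the 10 were higher in replicate 2, beside 32.0% of all genes, 31.7% of the 13074 genes above 1 FPKM and 39.1% of the 133 genes above 1000 FPKM. The ratio of replicate 2 to replicate 1 was highest for PSAD2 (1.40), PSAD1 (1.37), PSAG (1.24) and PSAE1 (1.23), between 1.07 and 1.10 for PSAE2, PSAH1, PSAF and PSAL, and below 1 for PSAH2 (0.953) and PSAK (0.929); PSAH2 and PSAK came out above 1 when the libraries were scaled to their sums without the 10 highest genes. On FPKM + 1, 0 of the 10 were at least 1.5-fold higher in replicate 2 (0.0292% of all genes) and 0 at least 1.5-fold lower (0.354%), or 0.383% of all genes in either direction. The median log2 ratio of the members was 0.13, against -0.07 for genes above 1 FPKM and -0.08 (SD 0.26) for those above 1000. Only 1 gene above 1000 FPKM, the photosystem II subunit gene PSBY, had a higher ratio than PSAD2. With 1 library on each side of this comparison there is no replicate check and no test.

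**Figure D3:**
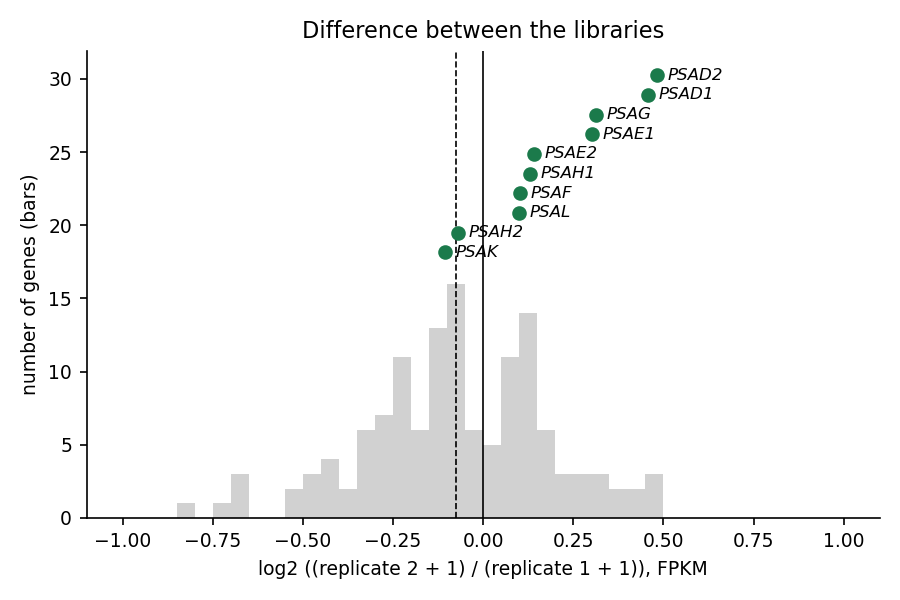
Log2 ratio of replicate 2 to replicate 1 on FPKM + 1 for the 133 genes with a mean above 1000 FPKM (grey bars, number of genes per bin of ratio) and for the 10 members (green points, stacked above the bars in order of ratio, so that their height carries no value). The solid line is at 0 and the dashed line at the median of the grey genes, -0.08; on the deposited scale 8 members lie to the right of 0, and 10 do when scaled to the sums without the 10 highest genes.

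The other 2 nuclear PSI subunit genes listed, PSAN and PSAO, did not share the direction of most members. PSAN, a lumenal subunit near the plastocyanin site, was at 10870 and 7743 FPKM (9307 ± 2211, SD, n = 2), which placed it next after PSAL by mean, above the other members and PSAO. In replicate 2 alone PSAN was below PSAE1 (9051) and PSAG (7787). PSAO, which lies at the LHCII docking face, was at 5956 and 5432 (5694 ± 371, SD, n = 2). Both were lower in replicate 2 under each scaling tried. Of the 6 antenna genes LHCA1 to LHCA6, 1 was higher in replicate 2 (2 after centring or without the 10 highest genes in the sums), and of 9 nuclear photosystem II subunit genes 5 were (6 after centring or rescaling). On the deposited scale 3 of the 6 electron carriers and all 3 mesophyll markers were also higher in replicate 2, so the direction was not particular to the members. The difference between these groups and the members was not tested.

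The partners of PSI were mostly less abundant than its subunits. For plastocyanin, the donor, PETE2 was at 3465 and 3342 FPKM and PETE1 at 421 and 442, so that PETE2 exceeded PETE1 8.24- and 7.56-fold. For ferredoxin, the acceptor, FD2 was at 1917 and 2224 and FD1 at 373 and 496. For leaf ferredoxin-NADP reductase, which hands the electrons on to NADP, LFNR1 was at 973 and 901 and LFNR2 at 167 and 157. Each carrier thus had a main gene, with a distance between paralogs of at least 4.49-fold in either library, and only PETE2 and FD2 reached the range of the members.

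Among the antenna genes, LHCA1 was highest (6047 ± 123, SD, n = 2) and LHCA6 lowest (153 ± 9.72, SD, n = 2), and the median of the 6 was 3395. The 9 photosystem II genes had a median of 6248, from PSBY (1161 ± 274, SD, n = 2) to PSBR (49649 ± 3548, SD, n = 2), the most abundant transcript of the table. The 7 nuclear genes listed here as PSI assembly factors include direct and indirect factors, none of which stays in the complex. They were all above 1 FPKM, as 47.7% of genes were. Their median was 15.7, from APO1 (1.36 ± 0.051, SD, n = 2) to PSA3 (292 ± 25.7, SD, n = 2). All 7 were below the lowest member. The 7 plastid genes of the set (PSAA, PSAB, PSAC, PSAI, PSAJ and the assembly genes YCF3 and YCF4) are listed at 0 in both libraries, and no level is drawn from that.

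**Figure D4:**
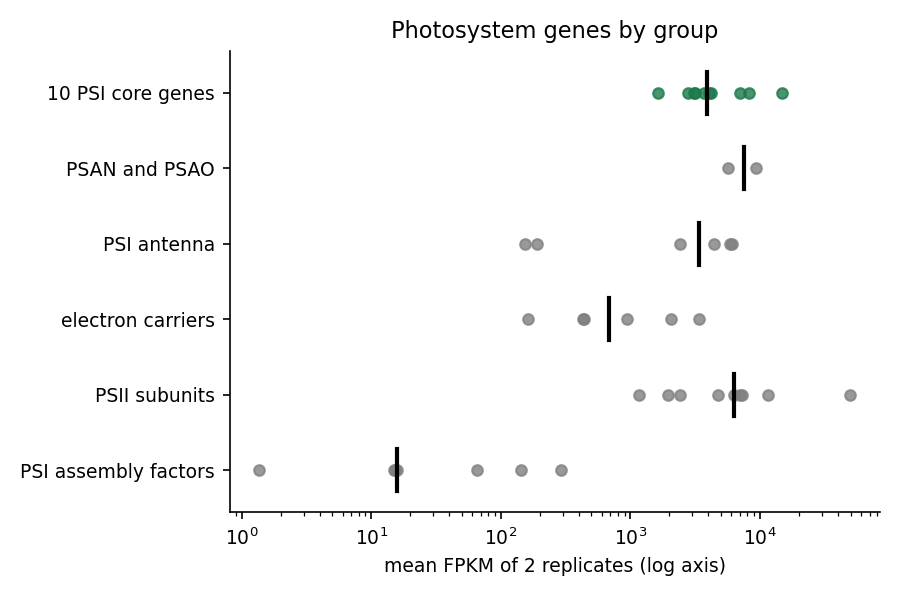
Mean FPKM of 2 replicates, on a log axis, for the 10 PSI core genes (green) and 5 other groups (grey); each point is a gene and each black bar the median of the group. The core genes (median 3887) lie in the range of the photosystem II genes (6248) and above all 7 assembly factors (15.7).

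PSAD1, PSAD2 and PSAG have no intron, as 20.5% of nuclear protein-coding genes have none. PSAF and PSAL have 2 exons, and both PsaE genes, both PsaH genes and PSAK have 3. Exon 2 has the same length within the PsaE pair and within the PsaH pair, and PSAH1 and PSAH2 also have the same coding length, 438 bases. The exon lengths of the members were short, with a median of 877 bases against 1517 for all nuclear protein-coding genes, and their median GC content was 42.7% against 41.3%.

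**Figure D5:**
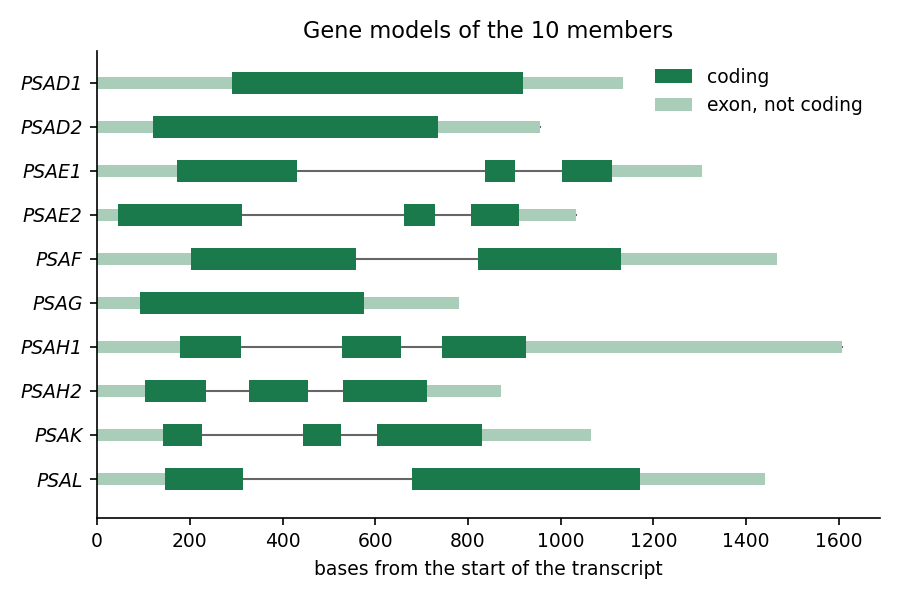
Exons of the 10 members in the TAIR10.1 annotation, drawn to scale in bases from the start of the transcript, with coding parts in dark green, other exon parts in pale green and introns as lines. PSAD1, PSAD2 and PSAG are single exons, exon 2 is alike within the PsaE and PsaH pairs, and PSAH1 ends in a long part that is not coding.

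For 6 of the members the annotation places another gene over part of the transcript, on the opposite strand for 6 of these 7 genes. AT3G16130 (ROPGEF13) overlaps 788 bases of PSAH1, and the related gene AT1G52240 (ROPGEF11) overlaps 174 bases of PSAH2, so the neighbours of this pair are also alike. ROPGEF13 was at 0.329 and 0.181 FPKM and ROPGEF11 at 4.91 and 4.20. The 5 overlapping genes in the table ranged from 0.181 to 27.3 FPKM, far under the members. The other 2, AT4G28755 over PSAE1 (436 bases) and AT1G55673 over PSAG (479 bases), have no value here. The sources do not say whether strand was used in counting, so reads of PSAE1 and PSAG and of these antisense genes cannot be told apart. The same limit holds where ROPGEF13 and ROPGEF11 overlap PSAH1 and PSAH2. Of the stretches of 150 bases in the TAIR10.1 mRNA, 44.7% for PSAH1 and 4.52% for PSAH2 also lay in the antisense gene. For PSAE1 and PSAG these shares were 18.2% and 52.3%. Their effect on the counts was not tested.

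The promoters, taken as 250 bases before to 50 after each annotated start, were searched on both strands for 4 short motifs, the G-box and I-box known from light-regulated genes and the general elements CCAAT and TATAAA. None of the 4 contains another, and the G-box reads the same on both strands. The G-box CACGTG was found in both PsaE genes and both PsaH genes and in none of the other 6 members, and 7.65% of 27561 promoters of the annotation held it. The I-box GATAAG was found in 7 of 10 members against 14.7% of promoters, CCAAT also in 7 against 51.6%, and TATAAA in 5 against 52.1%. In PSAE1 and PSAH1 the G-box began 8 and 18 bases after the start. In PSAD2, PSAH1 and PSAL the only I-box began 6, 1 and 10 bases after the start. The TATAAA hits of the members began at -245 to -76 from the start. The 100 bases before the start are shown for PSAE2 (chr2:8736634-8736733, plus strand) and PSAH2 (chr1:19454698-19454797, plus strand), whose G-boxes lie upstream, and for PSAF (chr1:11216142-11216241, minus strand) and PSAK (chr1:10722083-10722182, plus strand) as promoters with an I-box and no G-box; capitals mark any of the 4 motifs on either strand.
PSAE2: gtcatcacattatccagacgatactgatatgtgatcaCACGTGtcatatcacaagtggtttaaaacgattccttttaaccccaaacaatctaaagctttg
PSAH2: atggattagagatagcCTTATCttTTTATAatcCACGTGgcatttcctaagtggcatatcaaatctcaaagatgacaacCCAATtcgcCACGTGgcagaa
PSAF: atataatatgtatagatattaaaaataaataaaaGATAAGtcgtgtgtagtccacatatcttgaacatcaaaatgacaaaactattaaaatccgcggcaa
PSAK: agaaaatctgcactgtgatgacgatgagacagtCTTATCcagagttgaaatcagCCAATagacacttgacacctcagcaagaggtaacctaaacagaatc
PSAH2 holds 2 G-boxes, and PSAE2 holds 1 and none of the other motifs. Over the 250 bases before the start, motifs included, the paralogs were 45.5% to 48.3% identical, beside 47.1% for PSAG with PSAK, whereas their coding sequences were 77.3% to 87.0% identical.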

How the data were processed

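Leaf RNA of Col-0 plants aged 3 weeks was sequenced in 2 libraries with 150-base paired-end reads. Alignment to TAIR10 was done by the authors with TopHat2 2.0.9, and they deposited FPKM values computed, per their methods, with Cufflinks 2.1.1. The sources used here do not give the annotation release or the use of strand. The other 10 samples were not analysed here.

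The deposited FPKM values proved to be whole counts divided by an exon length and by 1 number per library (93100036 for replicate 1, 105573623 for replicate 2), which equals the uniquely placed reads the study lists. With these, whole counts were found for 20799 of 21309 genes above 0 in both libraries (97.6%, relative tolerance 5e-15), and the counts and lengths of the members were read from them. A member's length was sought only from its TAIR10.1 coding length up to its TAIR10.1 exon length. Whether the counts are reads or read pairs is not given.

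Means and SDs were taken over 2 replicates. Ratios were log2(FPKM + 1) differences. Paralogs were compared with an exact sign-flip permutation test. Subunit totals are sums over paralogs. Gene models and sequences came from RefSeq's TAIR10.1 annotation, which held all 10 members. Members were named by a rule that takes the 10 genes, PSAN, PSAO, the 6 electron carriers, the highest and lowest gene of every other list and the genes ranked beside the highest and lowest member; others are named as overlapping genes, chosen after their values were seen. The members and lists were chosen with earlier results of these data known. Alternatives were other pseudocounts, scalings, lengths and gene filters, and each replicate left out; those on length were added after seeing the data, except coding length for subunit totals. The recovery of the library divisors and of the ratios of counts, and the calls, were tested on simulated data with known gene lengths. The choice of a length for each gene, which sets its counts, was not part of that test. The tools were biopython 1.88, matplotlib 3.10.9, scipy 1.17.1, pandas 2.3.3 and numpy 2.4.6 under Python 3.11.15.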

Additional observations from a re-analysis of the deposited data

How the results depend on the processing

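Of 46 alternative values, 8 were labelled as moved and 0 as reversed in direction. Only the log2 ratios of the pairs and the median log2 ratio of the replicates could reverse, since the other values cannot be negative. For the pairs a change in size alone was not labelled as moved. The log2 ratios of the 3 pairs kept their direction under other pseudocounts, lengths and with either replicate left out; without a replicate they ranged from 0.76 to 0.78 (PsaD), 1.06 to 1.22 (PsaE) and -0.51 to -0.31 (PsaH). With the same counts divided by TAIR10.1 exon lengths they were 0.43, 0.94 and -1.29, PsaH then being the most unequal pair. The counts were not made anew, so these are not levels measured on the TAIR10.1 models. The median of the members was 5747 FPKM with coding lengths and 3837 with TAIR10.1 exon lengths, both chosen after seeing the data. The log2 ratio of the highest to the lowest subunit total, 2.25, became 2.42 with the more abundant paralog alone, 2.32 with coding lengths and 2.47 with TAIR10.1 exon lengths. Scaled to the sums without the 10 highest genes, PSAL among them, 1 member (PSAD2) was at least 1.5-fold apart and 10 of 10 were higher in replicate 2. The share of genes that far apart was 0.773% among genes above 1 FPKM and 3.76% among those above 1000. No paired analysis was possible because there is no second group to pair by replicate number; paralogs were compared within each library. The exact test used for the paralogs cannot give a p below 0.5 with 2 libraries.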

Other observations

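The 3 members without introns had the 3 largest ratios of replicate 2 to replicate 1 (PSAD2 1.40, PSAD1 1.37 and PSAG 1.24), a pattern noticed after the values were seen. PSAE1, which has 2 introns, came close behind PSAG at 1.23, and PSAD1 and PSAD2 are paralogs. Among the 133 genes above 1000 FPKM, the 31 without introns had a median log2 ratio of 0.02, with 16 higher in replicate 2, and the 102 with introns a median of -0.09, with 36 higher. Among all genes above 1 FPKM the medians were -0.03 (2078 genes without introns) and -0.07 (10986 genes with introns). No test was made, since each side of the ratio is 1 library.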
